A study of Homo sapiens with 26 samples.

Results

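The genes described here are 40 genes of the mitotic spindle and the kinetochore, taken from the 41078 genes of a table of messenger RNA levels in single cell-derived cell lines (SCDCLs) of pancreatic cancer. They were chosen by name, by what their proteins do in cell division, and not by a rule on their levels. Earlier results of these data were known when they were chosen. All 40 were found in the table by gene symbol, and each had a mean of at least 1 TPM (a level scaled to transcript length and to the library total). By role they hold 4 genes of mitotic entry, 3 mitotic kinases, 5 genes of the spindle checkpoint, 4 of the chromosomal passenger complex, 8 of the centromere and kinetochore, 5 motor proteins, 6 genes of the spindle and cytokinesis, and 5 of the anaphase-promoting complex (APC/C) and chromatid separation.

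The study asked how clones of 1 tumor cell population differ in their response to gemcitabine, a nucleoside analog used against pancreatic cancer. SCDCLs were grown by limiting dilution from the established lines BxPC3 and Panc-1, and polyadenylated RNA of each was sequenced once, giving 12 libraries labelled BxPC3 and 14 labelled Panc-1. Each library is 1 clone with no second library, so a difference between libraries holds the clone and the preparation together. The labels name gemcitabine as the treatment of all 26 libraries, whereas the methods describe the drug only in separate viability assays. How each clone responded to the drug was not analysed here.

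In a dividing cell the cyclin-dependent kinase CDK1 with its cyclins drives entry into mitosis, microtubules of the spindle attach to kinetochores built on centromeres, and the spindle checkpoint holds the APC/C inactive until each chromosome is attached. CDC20 then activates the APC/C, securin and cyclin B are destroyed, separase cuts the ring that holds sister chromatids together, and the cell divides. Most of these genes are transcribed late in the cell cycle, under the MuvB complex with B-MYB and FOXM1 and under NF-Y, and their summed RNA is widely read as a measure of how much a culture divides. In RNA from whole cultures, more dividing cells and more RNA in each dividing cell cannot be told apart.

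The labels were checked with SMAD4, a gene that BxPC3 has lost and Panc-1 has kept. SMAD4 was at 0 to 0.0440 TPM in 12 libraries, of which 5 are labelled BxPC3 and 7 Panc-1, and at 28.1 to 52.2 TPM in the 14 others, of which 7 carry each label. The epithelial gene CDH1 was at 90.8 to 198 TPM in the former and 0.338 to 7.74 TPM in the latter, the mesenchymal gene VIM at 1.42 to 73.2 and 3047 to 4526 TPM, and CDKN2A, which both lines lack, at 0 in each library. Library totals were 27035724 to 34945608 estimated counts. The libraries are called SMAD4-low (SMAD4 under 1 TPM) and SMAD4-expressing below. Because these sets come from a measured value that goes against the labels, differences between them are given as descriptions with no test, and libraries are named by the number in their title.

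The members share sequence features around their start sites, which the choice of genes did not use. RefSeq promoters (build GRCh38.p14), running from 250 bases before to 50 bases after the start, were matched to 33 of the 40 members, and not to AURKA, BUB3, TTK, KNL1, BIRC5, TPX2 and UBE2C. The CCAAT motif, the core of the site that NF-Y binds, was found on either strand in 78.8% of the 33 promoters against 35.7% of 27305 gene promoters. TTTGAA or TTCGAA, letters of the cell cycle genes homology region (CHR) that MuvB reads, was found on either strand in 75.8% of members and in 16.6% of all promoters. No other letters were searched for the CHR. Both motifs, which can share an end letter where they abut, stood together in 60.6% of members and in 6.58% of all promoters, and 48.5% of members against 11.3% of all promoters held at least 2 CCAAT motifs. TTTGGCGC or TTTCGCGC, letters of an E2F site, were found in 6.06% of members and 1.18% of all promoters. Of the 23 matched promoters of a list of 26 DNA replication genes, 39.1% held the E2F letters and 4.35% the CHR letters, while 56.5% held CCAAT and 34.8% at least 2 CCAAT motifs.

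The upstream bases of 5 members are shown because they hold these motifs in different number and because their genes carry results given further on. They are CCNB1 (chr5:69166900-69167134, plus strand), CCNB2 (chr15:59104896-59105125, plus strand), CDK1 (chr10:60778081-60778330, plus strand), CDC20 (chr1:43358731-43358980, plus strand) and BUB1 (chr2:110678064-110678313, minus strand), each 5′ to 3′ and ending at the last base before the gene start. Capitals mark the CCAAT motif and the CHR letters searched (TTTGAA and TTCGAA) on either strand.
CCNB1: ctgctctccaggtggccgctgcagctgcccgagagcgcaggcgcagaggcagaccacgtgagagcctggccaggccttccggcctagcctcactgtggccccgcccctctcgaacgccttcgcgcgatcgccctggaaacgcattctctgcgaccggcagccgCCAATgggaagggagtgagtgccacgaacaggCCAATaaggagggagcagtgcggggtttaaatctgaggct
CCNB2: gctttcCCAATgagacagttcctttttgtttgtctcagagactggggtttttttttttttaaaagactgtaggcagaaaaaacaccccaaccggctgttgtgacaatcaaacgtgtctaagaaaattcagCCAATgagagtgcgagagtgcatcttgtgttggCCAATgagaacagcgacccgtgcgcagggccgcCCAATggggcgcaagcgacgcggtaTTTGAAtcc
CDK1: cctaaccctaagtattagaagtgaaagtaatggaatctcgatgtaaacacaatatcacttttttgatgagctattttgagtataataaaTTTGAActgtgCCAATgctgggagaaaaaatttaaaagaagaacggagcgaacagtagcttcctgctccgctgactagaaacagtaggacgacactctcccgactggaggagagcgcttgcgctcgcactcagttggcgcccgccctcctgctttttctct
CDC20: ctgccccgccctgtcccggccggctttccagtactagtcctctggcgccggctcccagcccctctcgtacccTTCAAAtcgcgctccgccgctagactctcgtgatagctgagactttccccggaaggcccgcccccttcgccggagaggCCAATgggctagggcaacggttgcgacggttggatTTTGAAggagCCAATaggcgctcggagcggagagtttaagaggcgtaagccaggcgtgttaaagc
BUB1: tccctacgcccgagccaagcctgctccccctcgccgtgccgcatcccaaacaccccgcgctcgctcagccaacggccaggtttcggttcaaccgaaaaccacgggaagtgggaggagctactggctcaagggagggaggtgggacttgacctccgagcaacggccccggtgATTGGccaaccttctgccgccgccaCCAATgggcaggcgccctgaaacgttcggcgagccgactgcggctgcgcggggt
CCNB2 holds 4 CCAAT motifs and 1 CHR motif, CDC20 2 of each, and CDK1 1 of each. CCNB1 and BUB1 hold 2 CCAAT motifs and neither TTTGAA nor TTCGAA in the bases shown. The 1 match of BUB1 to these letters in the whole promoter does not lie within those bases. As no other letters were searched, this does not say that either gene lacks a CHR. A match is a run of letters and not a measured site, and no match says only that these letters are not in the window.

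Most members had overlapping levels in the SMAD4-low and the SMAD4-expressing libraries. The summed TPM of the 40 members was 3335 to 4893 (median 4127) in the SMAD4-low libraries and 3048 to 6256 (median 4409) in the SMAD4-expressing libraries. The ranges overlapped, and the SMAD4-expressing libraries spread further to both sides. Of the 40 members, 16 had the higher median in the SMAD4-low libraries and 24 the lower. The median of their log2 differences, SMAD4-low minus SMAD4-expressing, was -0.05. The size of the difference had a median of 0.36 over the members and 0.72 over the 14763 genes with a mean of at least 1 TPM, and 7.5% of members against 38.6% of those genes differed by more than 1 on the log2 scale. Those members were BUB1, ANLN and CCNA2, and the level of CCNA2 is uncertain, as given below.

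**Figure D1:**
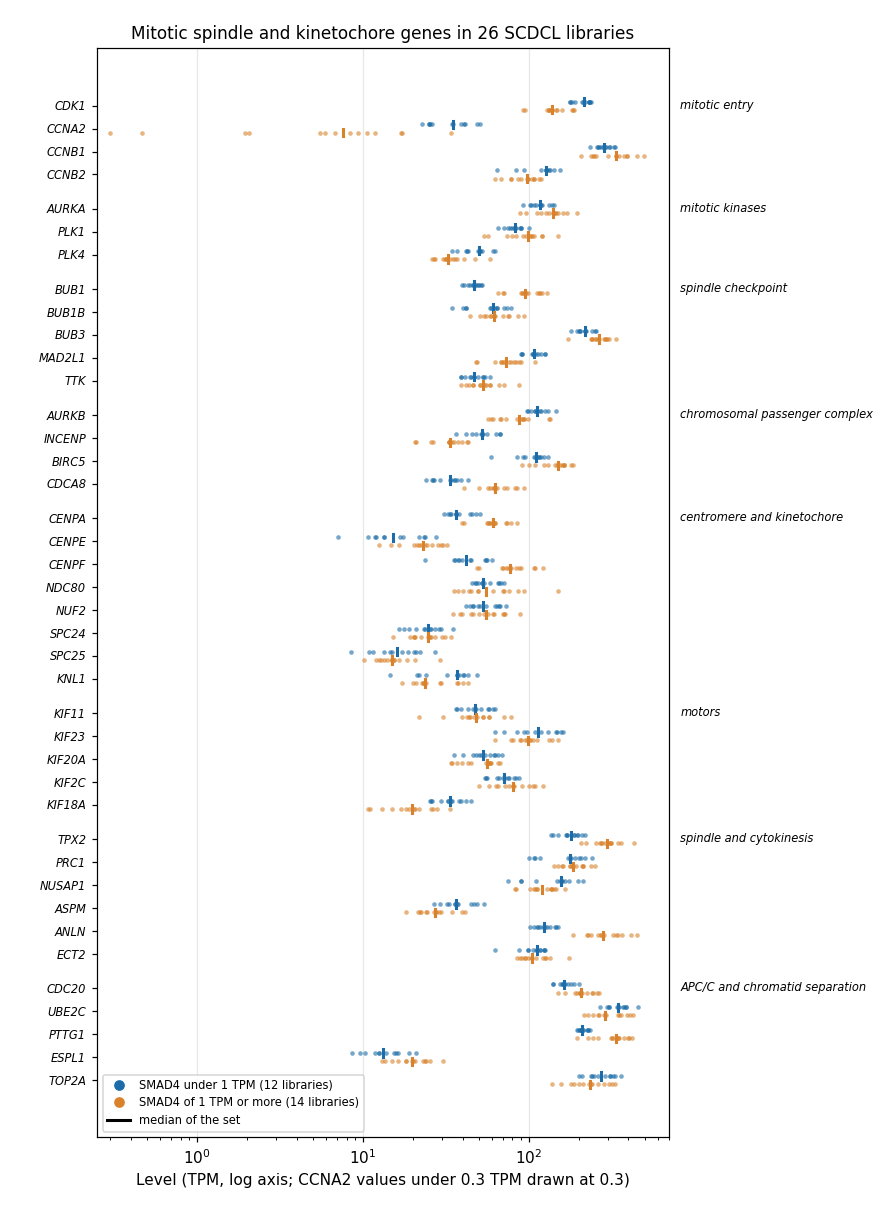
TPM (log axis) of the 40 members in each library, grouped by role, with SMAD4-low libraries in blue (12), SMAD4-expressing libraries in orange (14) and the median of each set as a bar. Most pairs of ranges overlap, BUB1 and ANLN are fully separate, and CCNA2 spreads over orders of magnitude in the SMAD4-expressing libraries.

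Among the genes of mitotic entry, CDK1 (the kinase itself) was at 177 to 237 TPM (median 215) in the SMAD4-low libraries and 92.4 to 189 TPM (median 138) in the SMAD4-expressing libraries. CCNB1, its main cyclin partner, was at 236 to 332 TPM (median 284) and 208 to 498 TPM (median 337). Kinase and cyclin thus had medians on opposite sides, CDK1 higher and CCNB1 lower in the SMAD4-low libraries, with overlap in both. CCNB2, the second B-type cyclin, was at 64.6 to 154 TPM (median 128) and 62.99 to 119 TPM (median 98.1). CCNA2, cyclin A2, was listed at 22.9 to 51.3 TPM (median 34.8) in the SMAD4-low libraries and from 0.000507 TPM in library 18 to 33.9 TPM in library 22 of the SMAD4-expressing libraries. These levels of CCNA2 are uncertain: kallisto's inferential replicates, the repeat estimates deposited for each library, fell under 1 count in 13 of 26 libraries. In library 20, for example, 673 estimated counts stood beside inferential replicates from 0.00577 to 1020. In 12 of 26 libraries the estimated count of CCNA2 lay outside the range of its inferential replicates, which are not scaled to length. No other member had an inferential replicate under 1 count.

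Of the mitotic kinases, AURKA, which matures the spindle poles, was at 93.2 to 142 TPM (median 117) in the SMAD4-low and 89.03 to 196 TPM (median 141) in the SMAD4-expressing libraries. PLK1, which acts at centrosomes and kinetochores, was at 65.9 to 100 TPM (median 82.5) and 53.7 to 150 TPM (median 98.9). Both ranges in the SMAD4-low libraries lay inside those of the SMAD4-expressing libraries. PLK4, the kinase that starts centriole duplication, was at 34.3 to 63.2 TPM (median 50.1) and 26.2 to 58.4 TPM (median 32.9), with the higher median in the SMAD4-low libraries.

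BUB1 (ENSG00000169679, chr2:110637528-110678063), the checkpoint kinase that marks centromeric histone H2A, did not overlap between the sets. It was at 39.4 to 52.6 TPM (median 46.8) in the SMAD4-low libraries and at 65.5 to 128 TPM (median 95.6) in the SMAD4-expressing libraries, a log2 difference of medians of -1.03. Each of the 14 SMAD4-expressing libraries was above each of the 12 SMAD4-low libraries. Its direct partners did not show such a gap. BUB3, which brings BUB1 to the kinetochore, was at 180 to 254 TPM (median 219) and 173 to 335 TPM (median 265), and BUB1B (BubR1), part of the complex that inhibits the APC/C, at 34.4 to 78.5 TPM (median 61.1) and 44.1 to 93.5 TPM (median 61.97). MAD2L1 (MAD2), which holds CDC20 in that complex, was at 90.5 to 125 TPM (median 107) and 47.9 to 109 TPM (median 73.6). For MAD2L1 13 of the 14 SMAD4-expressing libraries were below each SMAD4-low library, the reverse order of BUB1, and library 22 was the exception. TTK (MPS1), the kinase at the top of the checkpoint, overlapped with log2 difference -0.17.

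In the chromosomal passenger complex, which corrects faulty attachments, the members lay on both sides. AURKB, its kinase, was at 97.8 to 147 TPM (median 112) in the SMAD4-low and 57.3 to 135 TPM (median 87.9) in the SMAD4-expressing libraries, and its scaffold INCENP at 36.6 to 67.5 TPM (median 52.2) and 20.7 to 43.2 TPM (median 33.4). The other subunits had the lower median in the SMAD4-low libraries. CDCA8 (borealin) was at 24.2 to 42.9 TPM (median 33.7) and 40.9 to 93.6 TPM (median 62.6), and BIRC5 (survivin) at 59.2 to 132 TPM (median 111) and 90.7 to 187 TPM (median 151). For CDCA8 13 of the 14 SMAD4-expressing libraries were above each SMAD4-low library, and library 14 was the exception.

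At the centromere and kinetochore, the NDC80 complex that grips microtubules was at like levels in both sets. The log2 differences of medians were -0.06 for NDC80, -0.06 for NUF2, -0.01 for SPC24 and 0.11 for SPC25, and the sign turned under CPM with TMM or median-of-ratios factors for NUF2 and under the latter for SPC24. NDC80 was at 45.8 to 71.1 TPM (median 53.2) and 35.7 to 151 TPM (median 55.6), and the highest value was that of library 22. SPC25, at 8.54 to 27.2 TPM (median 16.1) and 10.2 to 29.1 TPM (median 14.996), was among the 4 members with the lowest level. CENPA, the histone that marks the centromere, was at 30.8 to 50.8 TPM (median 36.6) and 39.6 to 85.3 TPM (median 61.1), and CENPF, a large outer kinetochore protein, at 23.9 to 60.3 TPM (median 42.2) and 48.7 to 122 TPM (median 77.7). For both, 12 of the 14 SMAD4-expressing libraries were above each SMAD4-low library. CENPE, the kinetochore motor, differed by -0.61 and was low in general, at 7.11 to 27.6 TPM (median 15.1) and 12.6 to 32.1 TPM (median 23.1). KNL1, the platform for BUB1 and BUB3, differed by 0.65 the other way.

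Of the motors, KIF11 (Eg5, which pushes the poles apart), KIF20A and KIF23 (both of the cleavage site) and KIF2C (a microtubule depolymerase) differed by -0.01, -0.09, 0.20 and -0.18. These ranges overlapped, and the sign for KIF11 turned under each other scaling. KIF18A, which dampens chromosome oscillation, was at 25.6 to 45.1 TPM (median 33.4) in the SMAD4-low and 10.8 to 33.6 TPM (median 19.7) in the SMAD4-expressing libraries.

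ANLN (ENSG00000011426, chr7:36389821-36453791) was the second member with separate ranges. Its protein anillin links the contractile ring of cytokinesis to the membrane. ANLN was at 102 to 151 TPM (median 124) in the SMAD4-low libraries and 186 to 450 TPM (median 280) in the SMAD4-expressing libraries, and the log2 difference of medians was -1.18. Its promoter held 2 CHR motifs and no CCAAT motif. TPX2, which activates AURKA on the spindle, was at 137 to 219 TPM (median 179) and 206 to 432 TPM (median 297), and again 13 of the 14 SMAD4-expressing libraries were above each SMAD4-low library. The microtubule bundlers PRC1 and NUSAP1, the pole protein ASPM and the RhoA activator ECT2 differed by -0.04, 0.37, 0.43 and 0.10, all with overlap.

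The APC/C and chromatid separation genes held both high and low members, UBE2C and TOP2A among the 4 highest by median and ESPL1 among the 4 lowest. UBE2C, the E2 enzyme of the APC/C, was at 271 to 454 TPM (median 348) in the SMAD4-low and 217 to 427 TPM (median 289) in the SMAD4-expressing libraries, and TOP2A, which untangles DNA, at 202 to 360 TPM (median 275) and 139 to 333 TPM (median 236). PTTG1 (securin) spread least of all members in the SMAD4-low libraries, with 197 to 234 TPM (median 210), and was at 195 to 420 TPM (median 335) in the others. ESPL1 (separase), the protease that securin blocks, was far lower, at 8.65 to 20.9 TPM (median 13.2) and 13.04 to 30.6 TPM (median 19.95). CDC20, the APC/C activator, was at 140 to 201 TPM (median 163) and 150 to 267 TPM (median 206). Inhibitor and protease thus kept their order of level in all 26 libraries, securin above separase.

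In all, 2 of the 40 members (BUB1 and ANLN) had ranges that did not overlap between the sets, both lower in the SMAD4-low libraries, and 0 were higher. Of all 14763 genes, 30.3% did not overlap in either direction, with 14.5% higher and 15.8% lower in the SMAD4-low libraries, so members without overlap were a smaller share than genes without overlap. Library 22, the highest of its set in summed TPM, and library 14, the lowest, each decided part of that count. Without library 22 it was 4, with MAD2L1 and CCNA2 added, the latter of uncertain level. Without library 14 it was 4, with CDCA8 and TPX2 added. Without both (chosen after seeing the data) it was 6, CCNA2 included, against 32.1% of all genes.

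**Figure D2:**
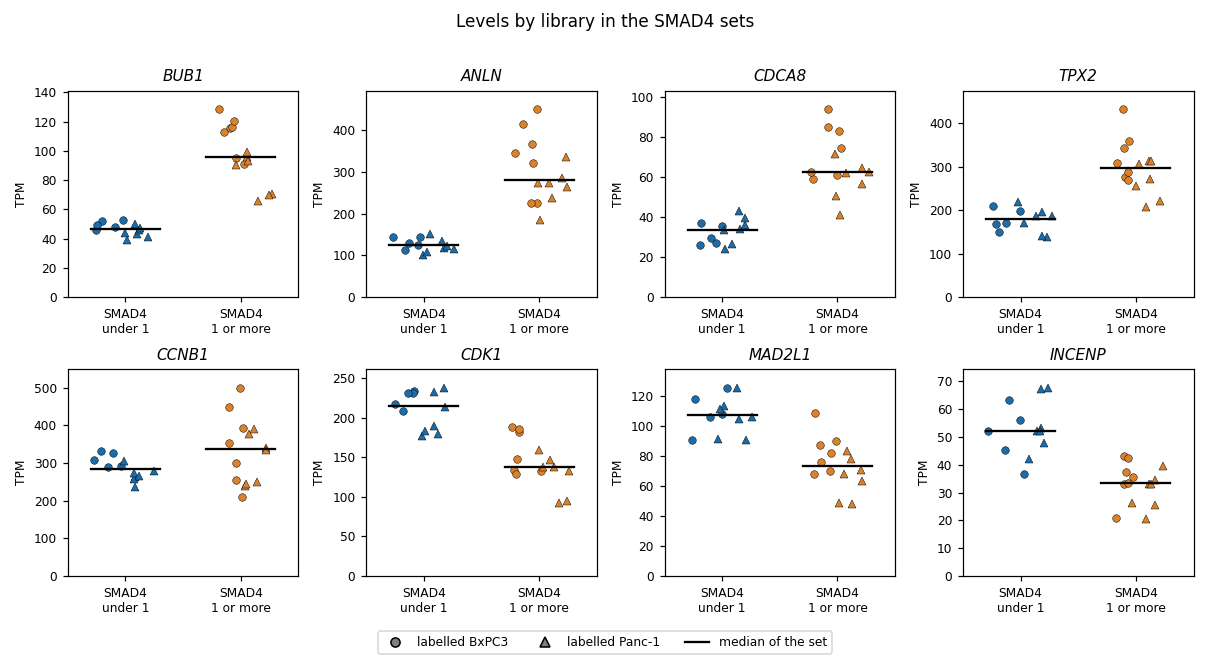
TPM per library of 8 members in the SMAD4-low (blue) and SMAD4-expressing (orange) libraries, with circles for libraries labelled BxPC3, triangles for those labelled Panc-1 and a line at the median of each set. BUB1 and ANLN do not overlap, CDCA8 and TPX2 overlap through the lowest SMAD4-expressing library, and CDK1, MAD2L1 and INCENP have their higher median in the SMAD4-low libraries.

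Of 59 other spindle and kinetochore genes, 2 were higher and 5 lower in the SMAD4-low libraries without overlap, 11.9% of the list against the 30.3% of all genes. SPDL1 (Spindly, a dynein adaptor) was at 31.2 to 69.8 TPM (median 50.7) against 85.9 to 332 TPM (median 179), SPAG5 (astrin) at 26.4 to 58.2 TPM (median 37.1) against 68.4 to 163 TPM (median 105), and SGO2 (shugoshin) at 14.9 to 31.4 TPM (median 23.7) against 40.7 to 86.8 TPM (median 63.8). In the other direction, SKA2, of the complex that holds kinetochores to shrinking microtubules, was at 96.2 to 206 TPM (median 145) against 42.4 to 73.8 TPM (median 53.2). Of the 14 regulators of mitotic transcription, 1 was higher and 2 lower in the SMAD4-low libraries without overlap. This is 21.4% of the list, against the 30.3% of all genes. NFYB was lower, at 6.24 to 18.8 TPM (median 10.5) against 25.01 to 48.5 TPM (median 32.2). NFYC was lower too, at 32.3 to 57.4 TPM (median 45.2) against 70.6 to 91.9 TPM (median 77.3). Both are subunits of the CCAAT-binding NF-Y. NFYA, its other subunit, had the higher median in the SMAD4-low libraries, with overlap, at 32.3 to 51.8 TPM (median 43.2) against 23.8 to 36.8 TPM (median 29.8). E2F4 was higher without overlap, at 73.3 to 111 TPM (median 92.1) against 40.4 to 58.9 TPM (median 51.3). FOXM1, at 39.5 to 77.4 TPM (median 55.8) and 30.01 to 76.6 TPM (median 45.9), and MYBL2 (B-MYB), at 49.8 to 135 TPM (median 87.1) and 43.7 to 109 TPM (median 66.2), overlapped. The 26 replication genes, which act earlier in the cycle, had the higher median in the SMAD4-low libraries in 24 cases, with a median log2 difference of 0.91 against -0.02 over all genes. Of these, 7 did not overlap, all higher, which is 26.9% of the list against 14.5% of all genes higher and 30.3% in either direction. The members were at a median of -0.05.

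The labels give the only groups that could be tested, and no member passed. Each label held libraries of both SMAD4 sets, so these tests compare labels and cannot say how BxPC3 and Panc-1 differ. In edgeR's quasi-likelihood test of libraries labelled Panc-1 against those labelled BxPC3, 0 of 16008 genes (0%) and so 0 members had an adjusted p under 0.05. At an unadjusted p under 0.05 there were 3 members (PLK1, NUF2 and ECT2, all lower in Panc-1-labelled libraries) and 2.29% of all genes. Within the SMAD4-low libraries 0 of 16124 genes were called, and 2 members and 11.4% of genes had an unadjusted p under 0.05, with a smallest adjusted p among members of 0.421. DESeq2 called 0 members in all libraries and within either set (1 gene in all libraries, 36 in the SMAD4-low and 1 in the SMAD4-expressing libraries), and limma, run on all libraries, called 0 as well.

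Within the SMAD4-expressing libraries 0 of 15161 genes were called. All 40 members, and 51.5% of all genes tested, had the lower fitted level in the libraries labelled Panc-1. The 40 directions are not independent, since the members varied together (median r between pairs of 0.726), and library 22, labelled BxPC3, had 40 of 40 members above the mean of the set and library 14, labelled Panc-1, 40 of 40 below it. The median log2 difference, Panc-1 minus BxPC3 label, was -0.30, and 15 members against 4.62% of genes had an unadjusted p under 0.05. BUB1 had a mean of 156 CPM (counts scaled to the library total with TMM factors) in the 7 libraries labelled Panc-1. In the 7 labelled BxPC3 it was at 207 CPM, a log2 difference of -0.41 (SE 0.12, edgeR unadjusted p = 0.0031, adjusted p = 0.982). ECT2 was at 170 and 217 CPM, a log2 difference of -0.37 (SE 0.12, edgeR unadjusted p = 0.0082, adjusted p = 0.982). Single libraries moved that count of 15. Among those labelled BxPC3 it was 5 without library 22, 8 without library 15 and 9 without library 20, and among those labelled Panc-1 it was 4 without library 13, 6 without library 14, 9 without library 9 and 23 without library 10. The difference of the label effect between the sets, tested as an interaction added after seeing the data, called 0 of 17456 genes, with 7 members and 7.77% of all genes under 0.05 before adjustment, the lowest adjusted p among members being 0.563. With the SMAD4 set as a covariate, 0 of 16800 genes were called, and 7 members and 7.52% of all genes had an unadjusted p under 0.05.

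Among the clones of each set the members varied together. Over all 780 pairs of members the median Pearson's r of log2(TPM + 1) was 0.593 (jackknife SE 0.096 over libraries) among the 12 SMAD4-low libraries and 0.726 (SE 0.079) among the 14 SMAD4-expressing libraries. Over all pairs of genes with a mean of at least 1 TPM the medians were 0.109 and 0.031. Pairs within the 26 replication genes had medians of 0.696 and 0.630, and pairs of a member with a replication gene 0.545 and 0.616. Pairs of a member with another spindle or kinetochore gene had 0.502 and 0.653. Such co-variation was thus not particular to the members. An r over 0.5 was found for 62.9% and 84.9% of member pairs against 15.1% and 6.83% of all pairs, and 83 and 2 member pairs had an r below 0. The points of each r share libraries and the TPM scale. In the SMAD4-low libraries that scale mattered, since with CPM after TMM normalization the median fell to 0.411 for members and 0.005 for all genes, while in the SMAD4-expressing libraries it was 0.736.

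**Figure D3:**
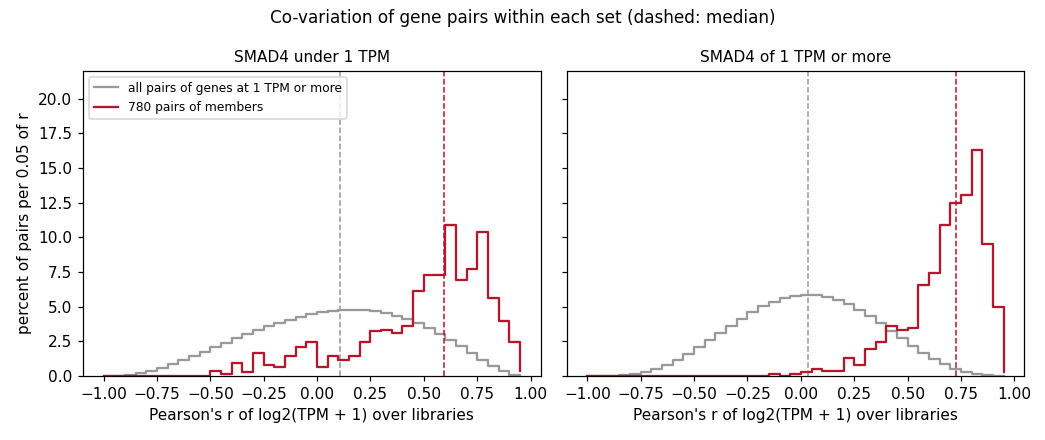
Share of gene pairs (percent per 0.05 of r) by Pearson's r of log2(TPM + 1) over the libraries of each set, for the 780 pairs of members (red) and all pairs of genes with a mean of at least 1 TPM (grey), with dashed lines at the medians. Member pairs sit to the right, at medians of 0.593 and 0.726, with a tail below 0 in the SMAD4-low libraries.

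By role, the motors were the most alike within a group, with a median r of 0.749 in the SMAD4-low and 0.801 in the SMAD4-expressing libraries, and the genes of mitotic entry the least, with 0.381 and 0.497. Without CCNA2, whose level is uncertain, the genes of mitotic entry had 0.412 and 0.633, still the lowest in the SMAD4-low set but above the APC/C and chromatid separation genes, at 0.628, in the other. PLK1 had a median r with the other members of 0.64 and 0.84, TPX2 of 0.75 and 0.76, and CDCA8 of 0.74 and 0.82. CENPE and CENPF, large proteins of the outer kinetochore, were the closest pair in the SMAD4-low libraries (r = 0.972), and CDCA8 and CDC20 in the SMAD4-expressing libraries (r = 0.966). Other members stood apart in the SMAD4-low libraries: MAD2L1 had a median r of 0.01 there against 0.73 in the SMAD4-expressing libraries, and SPC25 of -0.10 against 0.51. CCNA2 had -0.07 and 0.35. Whether these differ between the sets was not tested. FOXM1 had a median r with the members of 0.57 and 0.71, and MYBL2 of 0.57 and 0.68. NFYA, the NF-Y subunit that reads CCAAT, had 0.45 in the SMAD4-low and -0.42 in the SMAD4-expressing libraries. NFYB had 0.70 and 0.53, and NFYC 0.67 and 0.42. Among the other regulators, LIN37 had 0.06 and -0.62, E2F4 0.66 and 0.15, and RBL2 0.57 and -0.03. The regulators not named here had positive values in both sets.

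For 10 pairs of proteins known to bind each other, r was tested with 100000 permutations within each set, two-sided, and adjusted over the 20 relations. All 10 pairs in the SMAD4-expressing libraries and 7 in the SMAD4-low libraries had an adjusted p under 0.05. An r over 0.5 was found for 10 and 8 of these pairs, against 84.9% and 62.9% of all member pairs. The 10 pairs had a median r of 0.641 in the SMAD4-low and 0.777 in the SMAD4-expressing libraries, against 0.593 and 0.726 over all 780 pairs, and whether partners differed from other pairs was not tested. AURKA and its activator TPX2 were the closest in the SMAD4-expressing libraries, with r = 0.927 (permutation p = 2e-05, adjusted p = 0.0003) and Spearman's rho = 0.855 (permutation p = 0.00024, adjusted p = 0.0016). In the SMAD4-low libraries this pair had r = 0.776 (permutation p = 0.00297, adjusted p = 0.00646) and rho = 0.867 (permutation p = 0.00054, adjusted p = 0.0027). Without the 2 libraries farthest from the median of AURKA, r was 0.850 in both sets, so this relation did not rest on those libraries.

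BUB1 and BUB3 had r = 0.835 (permutation p = 3e-05, adjusted p = 0.0003) and rho = 0.899 (permutation p = 2e-05, adjusted p = 0.0002) in the SMAD4-expressing libraries. Without the 2 farthest libraries r was 0.835. BUB1 and BUB3 thus moved together there although only BUB1 was separate between the sets. In the SMAD4-low libraries r was 0.612 (permutation p = 0.0345, adjusted p = 0.0431), rho was 0.699 (permutation p = 0.0140, adjusted p = 0.0255), and without the 2 farthest libraries r was 0.621 (permutation adjusted p = 0.0931), as large but no longer past the threshold with fewer libraries.

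The checkpoint target CDC20 was tested with both of its inhibitors. CDC20 and BUB1B had r = 0.863 (permutation adjusted p = 0.0006) in the SMAD4-expressing and 0.670 (permutation adjusted p = 0.0249) in the SMAD4-low libraries, with rho = 0.916 (permutation adjusted p = 0.0002) and 0.615 (permutation adjusted p = 0.0504). CDC20 and MAD2L1 had r = 0.841 (permutation adjusted p = 0.00125) and 0.517 (permutation adjusted p = 0.0965), with rho = 0.785 (permutation adjusted p = 0.00483) and 0.615 (permutation adjusted p = 0.0504). In the SMAD4-expressing libraries both relations were past the threshold without the 2 libraries farthest from the median (r = 0.781 and 0.697), and in the SMAD4-low libraries neither was (r = 0.593 and 0.416).

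The least alike partners were found in the SMAD4-low libraries. SPC24 and SPC25, which form 1 arm of the NDC80 complex, had r = -0.227 (permutation p = 0.481, adjusted p = 0.481) and rho = -0.350 (permutation p = 0.266, adjusted p = 0.280) there, and r = 0.619 (permutation p = 0.0183, adjusted p = 0.0249) and rho = 0.547 (permutation p = 0.0472, adjusted p = 0.0555) in the SMAD4-expressing libraries, where r was 0.350 (permutation adjusted p = 0.282) without the 2 farthest libraries and the relation rests on them. Securin and separase (PTTG1 and ESPL1) had r = 0.267 (permutation p = 0.397, adjusted p = 0.418) and rho = 0.182 (permutation p = 0.572, adjusted p = 0.572) in the SMAD4-low libraries, where r was -0.367 with TMM factors and -0.148 (permutation adjusted p = 0.682) without the 2 farthest libraries, and r = 0.784 (permutation p = 0.00099, adjusted p = 0.0033) and rho = 0.745 (permutation p = 0.00351, adjusted p = 0.0078) in the SMAD4-expressing libraries, where r was 0.672 (permutation adjusted p = 0.0413) without the 2 farthest. Of the other pairs, CDK1 with CCNB1, AURKB with INCENP, BIRC5 with CDCA8 and NDC80 with NUF2 had r of 0.610 to 0.786 (permutation adjusted p of 0.00236 to 0.0460) in the SMAD4-low and 0.612 to 0.771 (permutation adjusted p of 0.00345 to 0.0249) in the SMAD4-expressing libraries. Their rho was 0.531 to 0.811 (permutation adjusted p of 0.00517 to 0.0887) and 0.618 to 0.789 (permutation adjusted p of 0.00456 to 0.0325). Only AURKB with INCENP was past the threshold in both sets without the 2 farthest libraries (r = 0.758 and 0.748), and the others of these 4 were past it in neither set. In the SMAD4-low and SMAD4-expressing sets their r was then 0.647 and 0.503 for CDK1 with CCNB1, 0.687 and 0.398 for BIRC5 with CDCA8, and 0.502 and 0.5996 for NDC80 with NUF2 (permutation adjusted p of 0.0622 to 0.243). The difference of r between the sets was not tested.

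The common movement was carried by whole libraries. In the SMAD4-expressing set library 22 was above the mean of the set for 40 of 40 members and highest for 28, whereas 12.5% of all genes were highest there. Library 14 was below the mean for 40 of 40 and lowest for 23, against 5.51% of all genes. In the SMAD4-low set library 3 was highest for 18 members, against 14.8% of all genes. Leaving out libraries 22 and 14 lowered the median r of the SMAD4-expressing set to 0.609. The mean centred level of the members followed that of the replication genes, with r = 0.894 over 12 and 0.913 over 14 libraries, which share library and scale. It had little relation to depth, with r of summed TPM and library total of 0.024 and 0.262.

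**Figure D4:**
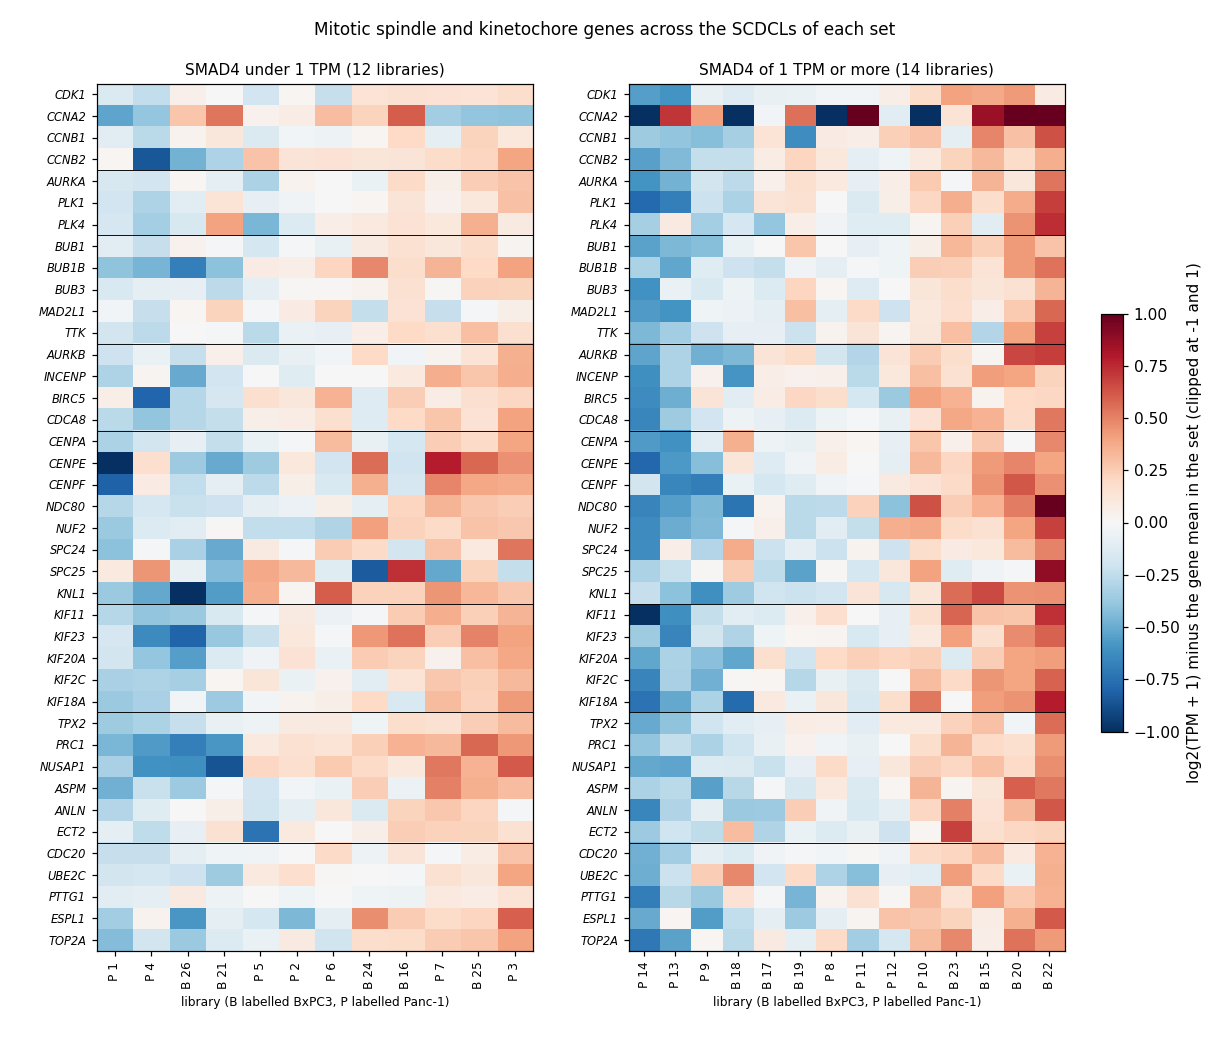
log2(TPM + 1) of each member minus its mean in the set, with libraries (B labelled BxPC3, P labelled Panc-1) ordered by the mean over members and roles divided by lines. Most rows run from low on the left to high on the right, from library 14 to library 22 in the SMAD4-expressing set. CCNA2, and SPC25 and MAD2L1 in the SMAD4-low set, do not follow the others.

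Some members of the same chromosome were low together in single libraries, a pattern looked at after seeing the data. Log2 levels here are each gene's level minus its median in the set and minus the median of all other genes in that library. Of the 40 members 6 lie on chromosome 15 (GRCh38, positions from GENCODE 44), namely CCNB2, BUB1B, KNL1, KIF23, PRC1 and NUSAP1. In the SMAD4-low libraries the median log2 level of 448 other genes of chromosome 15 was -0.38 in library 26, -0.37 in library 4 and -0.32 in library 21, and between 0.0036 and 0.087 in the other 9. The median of the 6 members was at -0.65, -0.72 and -0.57 in these 3 libraries, with all 6 below 0 in each. The members on other chromosomes had medians of 0.01, -0.20 and -0.0053, with 16, 29 and 17 of 34 below 0. KNL1 (ENSG00000137812, chr15:40594020-40664342) was at 14.7 TPM in library 26, 21.9 in library 4 and 21.2 in library 21 against a median of 37.2 TPM in the set. PRC1 (ENSG00000198901, chr15:90966040-90995629) was at 100, 109 and 108 TPM in the same libraries against a median of 179 TPM. These were the lowest values of PRC1. In library 1 the median of the 6 members was -0.47, while the other genes of chromosome 15 stood at 0.04. The members on other chromosomes were low in library 1 too, with a median of -0.18 and 31 of 34 below 0. What moved these levels was not tested.

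Over the 12 SMAD4-low libraries each of the 6 had an r with the median of the other chromosome 15 genes between 0.81 and 0.86, and these r share the 3 low libraries. In the SMAD4-expressing libraries, where chromosome 15 stood between -0.07 and 0.10, the 6 had r between 0.03 and 0.38. Pairs with both members on chromosome 15 had a median r of 0.885 in the SMAD4-low set, against 0.579 for pairs with neither there, and the values in the SMAD4-expressing set were 0.874 and 0.704. With each member taken relative to the other genes of its own chromosome, the median r over all 780 pairs was 0.423 in the SMAD4-low and 0.766 in the SMAD4-expressing libraries. Relative to the median of all other genes it was 0.414 and 0.724.

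Single members are described beside their neighbours within 10 Mb on each side. INCENP and KIF18A lie on chromosome 11, whose 727 other genes stood at -0.53 in library 18. INCENP was at 20.97 TPM there with its neighbours at -0.61, and KIF18A at 10.8 TPM, the lowest of its set, with its neighbours at -0.40. CCNB1 was lowest in library 19 of the SMAD4-expressing set, at 208 TPM, where 80 neighbours stood at -0.73. NDC80 was at 151 TPM in library 22 with 37 neighbours at 0.57, and ECT2 at 62.8 TPM in library 5, the lowest of all, with 42 neighbours at -0.58. Members far from their neighbours were PTTG1 in library 23, with neighbours at -0.34 and the member at -0.02, and TOP2A in library 4, with neighbours at 0.30 and the member at -0.19. ANLN had its highest value in library 22, where 661 other genes of its whole chromosome stood at -0.32. Its neighbours within 10 Mb stood less than 0.3 from 0 in that library. Where the neighbours stood 0.3 or more from 0, the member lay on their side in 15 of 16 cases in the SMAD4-low set and 11 of 11 in the SMAD4-expressing set. The same held for 85.9% and 88.8% of such cases over all other genes, so these counts are not particular to the members, and the cases share neighbours and libraries. The r of a member with its neighbours had a median of 0.34 and 0.25, against 0.18 and 0.34 over all other genes. With the level of the member or gene not set against all genes these were 0.21 and 0.24 against 0.17 and 0.35, and 15 of 16 and 10 of 11 members lay on the side of their neighbours. The table holds RNA levels and not DNA, and what moves neighbours together was not tested.

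**Figure D5:**
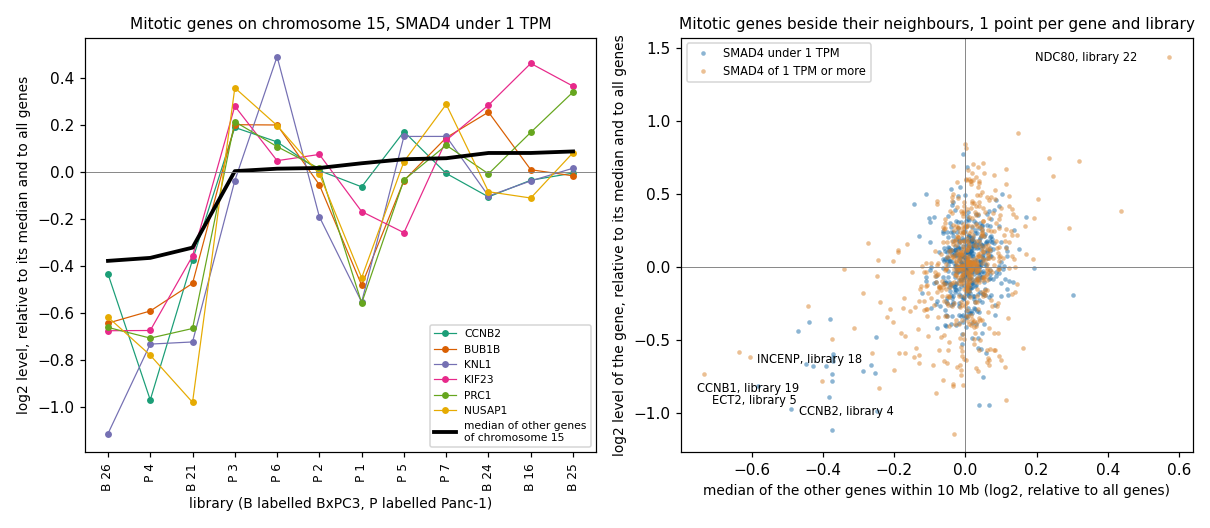
Left, log2 level of the 6 members on chromosome 15, each minus its median and the median of all other genes, in the SMAD4-low libraries ordered by the median of the other chromosome 15 genes (black), which is low in libraries 26, 4 and 21. Right, log2 level of each member except CCNA2 in each library, on the same scale, against the median of other genes within 10 Mb (blue SMAD4-low, orange SMAD4-expressing), where most points far to the left lie below 0.

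The spread between clones was larger than the error of quantification for each member in both sets, except for CCNA2 in the SMAD4-low libraries. Estimated counts are length-scaled and inferential replicates are not, and both were put on log2(CPM + 1) with the library total alone. The SD of the estimated counts over clones was divided by the SD over the 30 inferential replicates of each library. This ratio had a median of 7.93 over members in the SMAD4-low and 13.4 in the SMAD4-expressing libraries, against 5.16 and 5.27 over all genes with a mean of at least 1 TPM. It was over 2 for 39 of 40 members in each set, against 89.0% and 88.9% of genes. TOP2A was highest with 23.6 and 37.6, followed by PRC1 (20.8), KIF23 (19.4) and KNL1 (18.6) in the SMAD4-low and ANLN (33.8), TPX2 (26.9) and CENPF (25.5) in the SMAD4-expressing libraries. The lowest after CCNA2 (0.670 and 1.70) was SPC25 with 2.62 and 2.14. SPC25 was thus the member, after CCNA2, whose clone differences stood closest to the error of its estimates. Its median r with the other members was -0.10 in the SMAD4-low and 0.51 in the SMAD4-expressing libraries. Whether this ratio and r are related was not tested. Inferential replicates cover the sampling and assignment of reads only, not the culture or the library.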

How the data were processed

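Messenger RNA of 26 SCDCLs was sequenced by the authors, 1 library a clone. The authors quantified the paired-end reads with kallisto 0.46.1 (Ensembl GRCh38) and deposited, for each of 41078 genes, the TPM, the length-scaled estimated counts and 30 inferential replicates of the estimated counts. Totals of 27035724 to 34945608 estimated counts a library set the precision. Symbols and positions came from GENCODE 44 (36315 genes matched). Groups in tests were the labels. The members and lists were chosen with earlier results of these data known. Described by rule were members without overlap of TPM between the SMAD4 sets, the 4 highest and the 4 lowest, the 4 largest ratios of clone to inferential SD and the fixed partner pairs, and up to 5 genes of each other list. Other members named were described by role or chosen after their values were seen.

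Rounded estimated counts were tested with edgeR 4.0.16 (quasi-likelihood, TMM, filterByExpr, Benjamini-Hochberg over all genes), with DESeq2 1.42.0 and limma 3.58.1 as alternatives (R 4.3.3). Pearson's r used log2(TPM + 1) in numpy 2.4.6, and the ranks for Spearman's rho came from scipy 1.17.1. The scripts were tested on simulated data. Other scalings, filters and pseudocounts and leaving out each library were tried. p-values measure the spread between clones, each with 1 library. In the label test over all libraries, fitted without the SMAD4 set, that spread also holds the difference between the SMAD4 sets. The inferential replicates are on the unscaled count scale, and intervals from them cover counting and read assignment only.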

Additional observations from a re-analysis of the deposited data

Results flagged for a closer look

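Each of the 40 members and their summed TPM were looked at in the 4 groups of libraries with the same label and SMAD4 set. Of these 164 cases, 4 held a library far from the others by Dixon's criterion. Chance meets this criterion in about 1 of 20 cases, and 4 of 164 is a smaller share than that. CCNB2 was at 64.6 TPM in library 4 (labelled Panc-1, SMAD4-low) against 118 to 154 TPM in the others of its group, and its neighbours within 10 Mb stood at -0.49 on the log2 scale relative to all genes. BIRC5 was at 59.2 TPM in the same library against 108 to 132 TPM, with its neighbours at -0.38. INCENP was at 20.97 TPM in library 18 (labelled BxPC3, SMAD4-expressing) against 33.2 to 43.2 TPM, with its neighbours at -0.61. BUB3 was at 173 TPM in library 14 (labelled Panc-1, SMAD4-expressing) against 237 to 287 TPM, with its neighbours at -0.13.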

How the results depend on the processing

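No member was called between the labels under any alternative run, leaving out each library included (0 to 0 members in all libraries and within each SMAD4 set). The count of 2 members without overlap was 2 to 4 when each library was left out, with 4 without library 22 and 4 without library 14, and 6 without both, an alternative chosen after seeing the data. The median r of members in the SMAD4-low libraries was 0.593, and 0.411 with TMM factors, 0.372 with median-of-ratios factors, 0.423 relative to the other genes of the chromosome and 0.414 relative to all other genes (these last chosen after seeing the data). It was 0.533 to 0.620 when each library was left out. In the SMAD4-expressing libraries it was 0.726, 0.609 without libraries 14 and 22, and 0.675 to 0.756 when each library was left out. Of the 20 partner relations 17 passed, and 8 without the 2 farthest libraries. The r of PTTG1 and ESPL1 in the SMAD4-low libraries changed sign, from 0.267 to -0.367 with TMM factors and -0.148 without the 2 farthest libraries. The cause was not tested. The ratio of clone to inferential SD was 7.09 to 8.20 and 11.3 to 13.9 when each library was left out. No paired analysis was possible because the library numbers are not shared between the groups. With 1 library a clone, differences between clones and between preparations cannot be told apart.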
